A study of Mus musculus with 12 samples.

Results

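The genes that write and erase DNA methylation were examined in intestinal stem cells (ISCs) of young and old mice. They are 10 genes chosen by name out of 54232 in the count table: the writers Dnmt1, Dnmt3a, Dnmt3b, Uhrf1 and Uhrf2, and the erasers Tet1, Tet2, Tet3, Tdg and Mbd4. All 10 were found in the table by their Ensembl identifiers, and all 10 passed the filter on low counts, as did 13368 genes in all.

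ISCs at the base of the intestinal crypts divide throughout life and renew the epithelium, so a methylation pattern must be copied at every division. DNMT1 copies methyl groups onto the new strand after replication, and UHRF1 binds the hemimethylated DNA and guides DNMT1 to it. DNMT3A and DNMT3B place methyl groups on unmethylated CpG sites, the dinucleotides in which a C is followed by a G. TET1, TET2 and TET3 oxidise 5-methylcytosine. TDG removes the oxidised bases for repair, and MBD4, like TDG, removes thymine from T:G mismatches that arise when methylated cytosine deaminates.

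The libraries were 3′ RNA-seq of sorted ISCs from female mice, 1 mouse per library, in 4 groups of 3. The SM6 groups came from wild-type C57/Bl6 mice aged 2 months (young) or 22 months (old), whose ISCs were sorted by surface markers. The Lgr5-GFP groups came from mice of the same ages with the genotype Lgr5-EGFP-IRES-CreERT (CreERT2 in the study's methods), a reporter that places EGFP and a Cre recombinase under the control of the stem cell gene Lgr5. The labels name no treatment. They describe the surface marker sort for every library, whereas the study describes sorting of the Lgr5-GFP cells by the reporter. By the study's account strain and isolation changed together, and by the labels only the strain changed. Which account holds is not known, so a difference between SM6 and Lgr5-GFP libraries cannot be assigned to strain or isolation. Below, the SM6 and Lgr5-GFP groups are called isolations. The study asked what ageing does to the ISC transcriptome and epigenome. The comparisons below ask whether the transcripts of the methylation machinery differed with age in each isolation, whether the age differences themselves differed, and whether the isolations differed at each age.

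Libraries held between 970472 and 3815425 counts (median 1424340), so that 1 count corresponded to between 0.315 and 0.964 CPM (counts scaled to a library total of 1000000). All 12 intestinal stem cell markers examined, Lgr5 and Ascl2 among them, were detected in all 12 libraries. The libraries also held transcripts of secretory cells. The summed level of 11 Paneth cell markers ranged from 12924 to 88113 CPM in SM6 young, 54275 to 331238 in SM6 old, 56982 to 317848 in Lgr5-GFP young and 22846 to 39073 in Lgr5-GFP old. The stem cell markers summed to 13299 to 16478, 8467 to 9630, 12996 to 14818 and 11122 to 12812 CPM in the same order, so the old libraries lay below the young ones in both isolations. The 8 goblet cell markers summed to 5712 to 9134 CPM in SM6 young and 17322 to 18248 in SM6 old, but 5304 to 13753 in Lgr5-GFP young and 3159 to 5504 in Lgr5-GFP old. The 10 enterocyte markers summed to 1595 to 1765, 2305 to 8869, 1432 to 2694 and 1749 to 11560 CPM in the same order. In the adjusted test with age, 3 stem cell markers were lower in SM6, and 2 Paneth, 4 enterocyte, 5 goblet and 1 enteroendocrine markers were higher. In Lgr5-GFP, 2 Paneth and 3 enterocyte markers were lower. For the average of both, 3 stem cell markers were lower and 2 enterocyte markers higher. The summed immune markers stayed between 4.99 and 31.5 CPM and the stromal and endothelial markers between 0 and 8.14 CPM, with Cd79a, Col3a1 and Pdgfra at 0 counts in all libraries. The part of these other cells in the values below was not tested beyond a fit with the share of defensin counts, Paneth cell transcripts, as a covariate, and in bulk libraries fewer cells of a type cannot be told apart from less RNA per cell.

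The promoters of the members are shown first, since a start site rich in CpG is itself a potential target of the enzymes. RefSeq gives 15 windows for the 10 genes on GRCm38.p6, each running from 250 bases before to 50 after a start site. Of these, 14 held more CpG dinucleotides than the median window of all 32851 (7), with a range from 2 to 57. Dnmt1 had 3 listed starts, Dnmt3a 3 and Uhrf1 2, and the other 7 members had 1. The starts of one gene differed in their CpG content. The most upstream Dnmt1 window held 2 CpG and the most downstream 33, and the corresponding Dnmt3a windows held 46 and 18. The following windows show this contrast, written 5′ to 3′ on the strand of the gene with CpG in capitals. They lie at chr9:20959839-20960138 (minus strand), chr12:3806730-3807029 (plus strand) and chr12:3891494-3891793 (plus strand).
Dnmt1, most upstream start: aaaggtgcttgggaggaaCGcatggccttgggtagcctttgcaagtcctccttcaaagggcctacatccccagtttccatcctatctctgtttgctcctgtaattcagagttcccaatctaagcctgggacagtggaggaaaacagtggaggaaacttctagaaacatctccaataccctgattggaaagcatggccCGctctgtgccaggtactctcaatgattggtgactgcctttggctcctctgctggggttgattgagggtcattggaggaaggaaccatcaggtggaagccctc
Dnmt3a, most upstream start: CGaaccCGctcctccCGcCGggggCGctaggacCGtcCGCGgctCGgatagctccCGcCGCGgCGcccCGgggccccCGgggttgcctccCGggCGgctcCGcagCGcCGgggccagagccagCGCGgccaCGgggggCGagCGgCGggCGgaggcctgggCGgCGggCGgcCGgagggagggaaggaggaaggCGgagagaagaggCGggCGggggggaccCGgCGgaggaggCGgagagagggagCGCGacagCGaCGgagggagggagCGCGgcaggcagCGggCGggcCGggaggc
Dnmt3a, most downstream start: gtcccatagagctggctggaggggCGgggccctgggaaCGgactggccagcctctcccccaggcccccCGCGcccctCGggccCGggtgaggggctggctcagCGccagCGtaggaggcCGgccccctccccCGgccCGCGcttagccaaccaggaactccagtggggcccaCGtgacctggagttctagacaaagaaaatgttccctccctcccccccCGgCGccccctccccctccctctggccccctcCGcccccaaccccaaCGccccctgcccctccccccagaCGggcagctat

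A search for the E2F motif, the element through which S phase genes are switched on, used the letters TTTCCCGC, TTTCGCGC, TTTGCCGC and TTTGGCGC on both strands. It matched 2 of the 15 windows, against 2.26% of all windows. These were the most downstream start of Dnmt1 and that of Uhrf1, the maintenance pair, shown here with the matches in capitals. The Dnmt1 window (chr9:20952574-20952873, minus strand) had 2 matches and the Uhrf1 window (chr17:56304063-56304362, plus strand) had 1.
Dnmt1, most downstream start: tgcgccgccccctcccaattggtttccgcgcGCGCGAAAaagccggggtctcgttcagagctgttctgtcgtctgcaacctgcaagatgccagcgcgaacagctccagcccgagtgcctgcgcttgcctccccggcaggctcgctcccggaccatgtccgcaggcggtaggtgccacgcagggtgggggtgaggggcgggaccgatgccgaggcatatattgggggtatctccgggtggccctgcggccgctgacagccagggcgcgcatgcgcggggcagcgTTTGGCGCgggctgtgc
Uhrf1, most downstream start: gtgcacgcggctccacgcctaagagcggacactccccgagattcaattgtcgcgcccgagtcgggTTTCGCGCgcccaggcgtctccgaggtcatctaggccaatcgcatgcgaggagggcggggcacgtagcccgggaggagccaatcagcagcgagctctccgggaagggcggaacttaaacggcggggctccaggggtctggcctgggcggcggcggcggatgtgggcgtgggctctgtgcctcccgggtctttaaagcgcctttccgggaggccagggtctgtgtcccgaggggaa
A GC box (GGGCGG, either strand) was present in 12 of the 15 windows, against 35.7% of all windows. The CCAAT box (CCAAT, either strand) was present in 7, against 37.4%, and TATAAA in none, against 13.6%. A match describes letters only, and 3′ counts cannot tell which start was used.

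No member passed the test in any comparison. With edgeR's quasi-likelihood test and Benjamini-Hochberg adjustment over 13368 genes, 0 of 10 were called between old and young SM6 cells, where 2.42% of all genes were called. The count was also 0 between old and young Lgr5-GFP cells (0.471% of all genes) and for the average of both age differences (2.66%). It was 0 for the interaction of age with isolation (0.658%) and for Lgr5-GFP against SM6 at 2 months (0.0898%) and at 22 months (0.718%). DESeq2, limma voom and edgeR's likelihood ratio test called 0 as well. At an unadjusted p under 0.05, the quasi-likelihood test gave 1 member in SM6 (Dnmt3a), where 13.1% of all genes were below it, and 0 in Lgr5-GFP (9.79%). It gave 1 for the average (Dnmt3a, 12.8%), 0 for the interaction (9.43%), 0 between isolations at 2 months (7.47%) and 1 at 22 months (Dnmt3b, 9.4%). The shares of members lay near or below the shares of all genes.

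**Figure D1:**
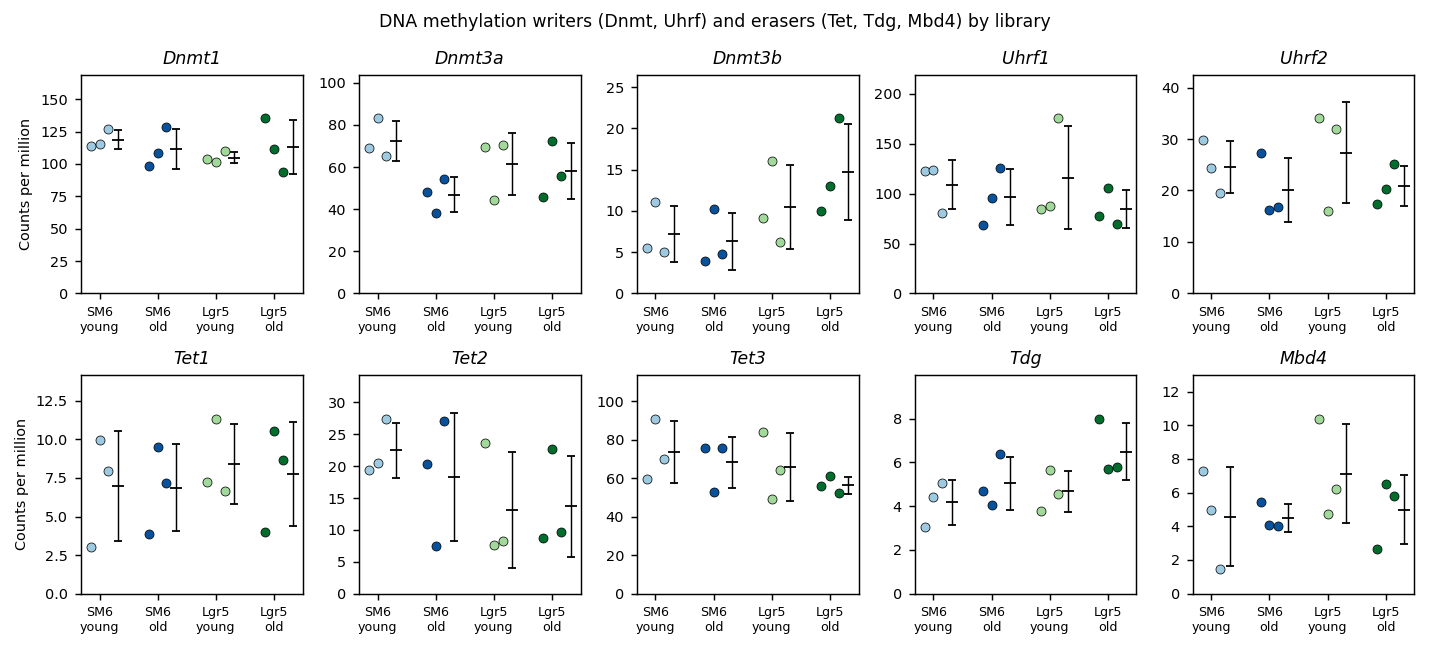
Level of each of the 10 genes in CPM (vertical axis, from 0) in the 12 libraries, by group (Lgr5 young and Lgr5 old are the Lgr5-GFP groups). Points are libraries in order of replicate and bars are the mean ± SD of 3; the SM6 groups are separate for Dnmt3a (38.0 to 54.3 in old, 65.0 to 83.1 in young), and most other groups overlap.

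Dnmt1 was the steadiest member, with a coefficient of variation of 11.4% over the 12 libraries and a range from 93.5 to 135.3 CPM. The gene lies at chr9:20907209-20959888 on the minus strand of GRCm38. SM6 young libraries held 114.1, 115.3 and 127.2 CPM and SM6 old libraries 98.2, 108.6 and 128.6. Lgr5-GFP young libraries held 104.0, 101.1 and 109.7 CPM and Lgr5-GFP old libraries 135.3, 111.4 and 93.5. Old and young libraries overlapped in both isolations. The log2 fold change with age was -0.09 ± 0.17 (SE) in SM6 and 0.12 ± 0.17 in Lgr5-GFP. The average over both was 0.01, with a 95% confidence interval from -0.24 to 0.27, the narrowest interval of the 10 genes. At 2 months all 3 Lgr5-GFP libraries were below all 3 SM6 libraries, a separation also seen in either direction in 13.7% of all genes. The fold change there was -0.18 (SE 0.17, edgeR adjusted p = 0.862).

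Uhrf1 (chr17:56303321-56323486, plus strand), the partner of Dnmt1, varied more. In SM6, the young libraries had 122.6, 123.6 and 80.9 CPM and the old libraries 68.6, 95.7 and 125.4. In Lgr5-GFP, the young libraries had 85.1, 87.9 and 175.5 CPM and the old libraries 77.3, 105.7 and 69.4. The value of 175.5 CPM in Lgr5-GFP young replicate 3 was the highest of all 12, and the groups overlapped. The log2 fold change with age was -0.18 ± 0.26 (SE) in SM6 and -0.47 ± 0.26 in Lgr5-GFP (edgeR adjusted p = 0.593). Without Lgr5-GFP young replicate 3 the latter was -0.03. The average was -0.33 (95% confidence interval -0.71 to 0.06). With the mean level of 25 DNA replication genes as a covariate, the average was -0.03.

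Since maintenance methylation accompanies replication, the log2 level of each member was compared with the mean log2 level of those 25 DNA replication genes over the 12 libraries. Uhrf1 had the highest correlation, with Pearson's r = 0.59 (permutation p = 0.0442, 0.442 after adjustment over 10 members) and Spearman's rho = 0.67 (permutation p = 0.0199, adjusted 0.199). The relation did not pass the correction. Its r was 0.54 without the 2 libraries farthest from the median of the replication genes and 0.59 after removing the group means, a value that Tdg (0.59) shared. For Dnmt1 the r was 0.39 (permutation p = 0.208, adjusted 0.838) and rho was 0.39. Pearson's r of the other 8 members lay between -0.21 and 0.36, and their adjusted p was 0.838 in each case.

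Dnmt3a (chr12:3806007-3914443, plus strand) showed the largest age difference relative to its error. Young SM6 cells showed 69.2, 83.1 and 65.0 CPM, and old SM6 cells 48.3, 38.0 and 54.3. All 3 old SM6 libraries were thus below all 3 young ones, a separation seen in either direction in 17.5% of all genes. Lgr5-GFP young libraries held 69.6, 44.4 and 70.4 CPM and Lgr5-GFP old libraries 46.0, 72.4 and 55.9, and these groups overlapped. The log2 fold change was -0.64 in SM6 (SE 0.22, 95% confidence interval -1.10 to -0.18, edgeR adjusted p = 0.162). An exact two-sided permutation test of the log2 CPM values gave p = 0.1, the smallest that 3 against 3 libraries allow. In Lgr5-GFP the change was -0.12 (SE 0.22, adjusted p = 0.931), and the difference between these age effects was 0.52 (SE 0.31, adjusted p = 0.641). The average was -0.38 (SE 0.16, adjusted p = 0.28). The Dnmt3a difference in SM6 therefore did not pass the correction for all genes, and it was not shown to be absent from Lgr5-GFP cells. The SM6 old group, lower in Dnmt3a, also had the higher goblet cell and enterocyte sums and the lower stem cell sums (lower with age in Lgr5-GFP as well). All 11 Paneth cell markers had positive age differences in SM6, with sums that overlapped. The part of these shifts in the Dnmt3a value was not tested beyond the fit with the defensin share. The ratio of Dnmt3a to Dnmt1 counts, chosen after the values were seen, ran from 0.511 to 0.721 in SM6 young and from 0.350 to 0.492 in SM6 old. In Lgr5-GFP it ran from 0.439 to 0.670 in young and from 0.340 to 0.650 in old.

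Dnmt3b (chr2:153649450-153687730, plus strand) had few counts, between 5 and 29 per library. Young SM6 cells showed 5.46, 11.1 and 5.06 CPM, and old SM6 cells 3.90, 10.2 and 4.79. Levels in Lgr5-GFP were 9.14, 16.1 and 6.21 CPM in young and 10.0, 13.01 and 21.2 in old libraries. The Lgr5-GFP old libraries were the highest as a group but overlapped with SM6 old. At 22 months the log2 fold change of Lgr5-GFP over SM6 was 1.17 (SE 0.50, 95% confidence interval 0.14 to 2.19, edgeR adjusted p = 0.455). The age differences of -0.19 in SM6 and 0.55 in Lgr5-GFP had intervals that spanned 0.

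Uhrf2 (chr19:30030513-30093722, plus strand), the paralogue of Uhrf1, ranged from 16.1 to 34.0 CPM. Levels in SM6 were 29.7, 24.4 and 19.5 CPM in young and 27.3, 16.3 and 16.8 in old libraries. Lgr5-GFP young libraries held 34.0, 16.1 and 31.9 CPM and Lgr5-GFP old libraries 17.3, 20.3 and 25.1. Groups overlapped in both isolations. The age difference was -0.30 ± 0.31 (SE, log2) for SM6 cells and -0.46 ± 0.30 for Lgr5-GFP cells. Their average was -0.38 ± 0.22 (edgeR adjusted p = 0.5). With the replication genes as covariate the Uhrf2 difference was -0.60 in SM6 and -0.57 on average (adjusted p = 0.468, unadjusted p under 0.05). With one SM6 library left out, the SM6 value ran from -0.56 (without SM6 old replicate 1) to -0.14 (without SM6 young replicate 1).

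**Figure D2:**
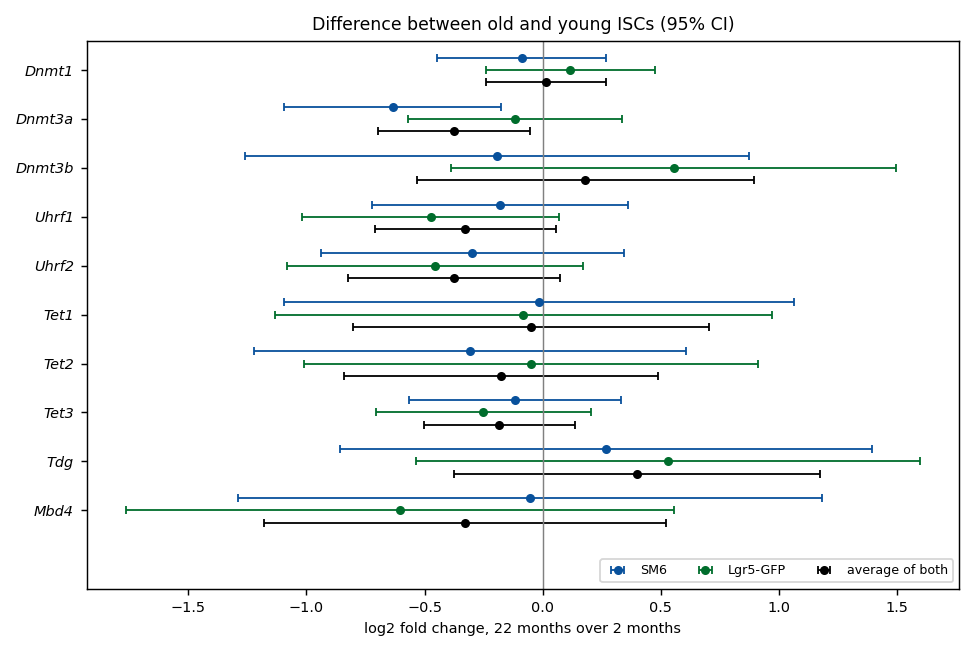
Log2 fold change of 22 months over 2 months (horizontal axis) for each gene, for both isolations and their average, with 95% confidence intervals. The interval of Dnmt3a in SM6 (-1.10 to -0.18) and that of its average (-0.70 to -0.05) exclude 0 before correction; all others include it.

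Among the erasers, Tet3 (chr6:83362373-83459084, minus strand) had the most counts, between 52 and 267 per library. SM6 young libraries held 59.5, 90.9 and 70.1 CPM and SM6 old libraries 75.6, 52.9 and 75.9. In Lgr5-GFP, the young libraries had 84.1, 49.2 and 64.2 CPM and the old libraries 56.0, 61.0 and 52.1. The old libraries lay within or across the young range in each isolation. The log2 fold change with age was -0.12 ± 0.22 (SE) in SM6 and -0.25 ± 0.22 in Lgr5-GFP, and the average of -0.18 had a 95% confidence interval from -0.50 to 0.14. Without Lgr5-GFP young replicate 1 the Lgr5-GFP value was -0.03.

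Tet2 (chr3:133463679-133545139, minus strand) differed widely within groups. In SM6, the young libraries had 19.4, 20.5 and 27.5 CPM and the old libraries 20.3, 7.47 and 27.2. Young Lgr5-GFP cells showed 23.6, 7.56 and 8.28 CPM, and old Lgr5-GFP cells 8.66, 22.8 and 9.64. One library of each Lgr5-GFP group was thus more than 2-fold above the others. The age difference was -0.31 ± 0.44 (SE, log2) in SM6 and -0.05 ± 0.46 in Lgr5-GFP. At 2 months Lgr5-GFP against SM6 gave -0.66 (SE 0.43, edgeR adjusted p = 0.758), and -1.47 without Lgr5-GFP young replicate 1. That library also had the highest Paneth marker sum of its group, 317848 CPM. The other high library, Lgr5-GFP old replicate 2, had 2.41% of its counts in defensins, against 2.27% and 3.86% in replicates 1 and 3. Over all libraries, log2 levels of Tet2 and of the defensin share had Pearson's r = 0.07. With the defensin share as covariate the difference between isolations at 2 months was -1.17 (adjusted p = 0.682, unadjusted p under 0.05).

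Tet1 (chr10:62804570-62908996, minus strand) was detected in every library by 5 to 23 counts. Young SM6 cells showed 3.03, 9.98 and 7.95 CPM, and old SM6 cells 3.90, 9.50 and 7.19. Levels in Lgr5-GFP were 7.25, 11.3 and 6.62 CPM in young and 4.00, 10.6 and 8.68 in old libraries. The ranges of all 4 groups overlapped, and the lowest Lgr5-GFP young library lay above the lowest library of each other group. The age difference was -0.02 in SM6 and -0.08 in Lgr5-GFP, with 95% confidence intervals from -1.10 to 1.06 and from -1.13 to 0.97, so a change of up to about 2-fold in either direction was not excluded at this depth.

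The glycosylases had the fewest counts of the 10. Tdg (chr10:82629828-82650799, plus strand) had 5 to 12 counts per library. Levels in SM6 were 3.03, 4.43 and 5.06 CPM of Tdg in young and 4.68, 4.07 and 6.39 in old libraries. Lgr5-GFP young libraries held 3.78, 5.67 and 4.55 CPM and Lgr5-GFP old libraries 8.00, 5.69 and 5.79. In Lgr5-GFP all 3 old libraries were above all 3 young ones, by 5.69 against 5.67 CPM at the nearest, and 14.6% of all genes separated in one direction or the other. The fold change there was 0.53 (SE 0.52, 95% confidence interval -0.53 to 1.60, edgeR adjusted p = 0.804), and in SM6 it was 0.27 ± 0.54. Counts of the pseudogene Tdg-ps came to 12 over all libraries against 94 for Tdg, so reads shared between them would be a visible part of the Tdg value.

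Mbd4 (chr6:115840697-115853371, minus strand) had 2 to 33 counts per library. SM6 young libraries held 7.28, 4.99 and 1.45 CPM and SM6 old libraries 5.46, 4.07 and 3.99. In Lgr5-GFP, the young libraries had 10.4, 4.73 and 6.21 CPM and the old libraries 2.67, 6.51 and 5.79. The SM6 young range enclosed all SM6 old values. The age difference was -0.05 ± 0.60 (SE, log2) in SM6 and -0.60 ± 0.56 in Lgr5-GFP. With single libraries left out, the Lgr5-GFP value ran from -0.86 to -0.19. Genes that overlap Dnmt3a, Tet2, Tdg or Mbd4 on the opposite strand had at most 2 counts over all libraries.

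Viewed as a group, the members had a median log2 fold change with age of -0.15 in SM6, against -0.01 over all genes tested. Of the 10 members, 9 had a negative difference, as did 50.7% of all genes tested. This count was 8 with DESeq2 size factors, 6 with the replication genes as covariate, 5 without SM6 young replicate 2 or SM6 old replicate 1, and 6 without SM6 old replicate 2. In Lgr5-GFP 7 were negative (4 when scaled by library totals alone, 5 with the defensin share as covariate or without Lgr5-GFP old replicate 1). The share of all genes was 53.6%. The median of the members was -0.10 against -0.03 over all genes. The average over both isolations had a median of -0.18 against -0.03. None of the individual differences passed the test, and the comparisons between isolations share the same libraries as those with age. At 2 months 6 members were higher in Lgr5-GFP than in SM6 and at 22 months 7, with medians of 0.11 and 0.08 against -0.01 and 0.00 over all genes. Of all genes, 50.9% at 2 months and 49.8% at 22 months were lower in Lgr5-GFP. The counts of members also depended on the setting. At 2 months the count was 5 with library totals alone and 4 without SM6 young replicate 1, while the older libraries gave 8 under library totals, 4 with limma voom and 5 without SM6 old replicate 1, Lgr5-GFP old replicate 2 or Lgr5-GFP old replicate 3. At 22 months no member separated the isolations, which 13.5% of all genes did. The average age difference was known most closely, with 8 of 10 intervals lying inside a 2-fold change in either direction. The summed eraser level made up 25.1% ± 3.3 (SD, n = 3) of the summed level of all 10 genes in SM6 young and 26.7% ± 4.2 in SM6 old. In Lgr5-GFP it made up 23.8% ± 5.8 in young and 23.4% ± 1.6 in old, so the ranges overlapped with age. These shares compare counts of transcripts, not of transcript length or of protein.

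**Figure D3:**
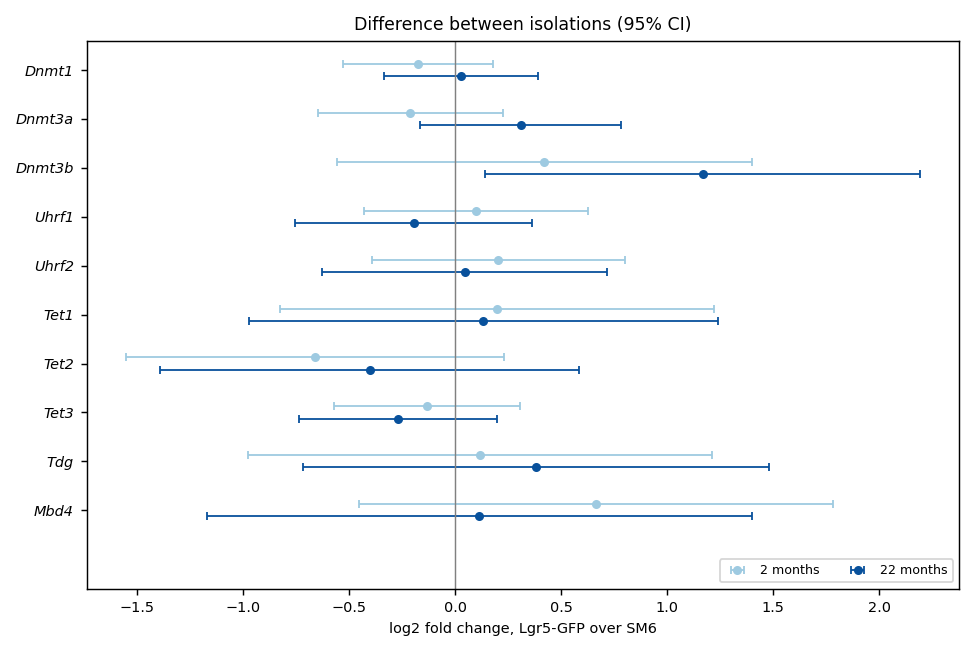
Log2 fold change of Lgr5-GFP over SM6 (horizontal axis) for each gene at 2 months and at 22 months, with 95% confidence intervals. The interval of Dnmt3b at 22 months (0.14 to 2.19) excludes 0 before correction, and the other 19 include it.

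The genes whose log2 levels most resembled those of the 3 members with the highest mean level were sought among 8326 genes over the 12 libraries. For Dnmt1 these were Fam126b (Pearson's r = 0.93), Gm1821 (0.88), Glo1 (0.84), Babam2 (0.83) and Tcp1 (0.80). For Uhrf1 they included Trap1 (0.89), Hirip3 (0.87), Mrps26 (0.84) and Slc10a7 (0.83). For Tet3 they were Ctsd (0.91), Fyco1 (0.88), E4f1 (0.85), Cyth2 (0.84) and Fam110a (0.84). These are the top values out of many genes and describe the 12 libraries only.

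The wider pathway was examined through fixed lists. Gadd45a, a stress-induced gene whose product has been linked to repair-based removal of 5-methylcytosine, fell with age. In SM6, the young libraries had 68.0, 99.2 and 74.4 CPM and the old libraries 17.9, 25.1 and 24.0. Young Lgr5-GFP cells showed 51.7, 49.2 and 68.3 CPM, and old Lgr5-GFP cells 24.0, 52.0 and 23.1. The SM6 groups were far apart, whereas 1 old Lgr5-GFP library lay within the young range. The log2 fold change was -1.85 in SM6 (SE 0.28, edgeR adjusted p = 0.000579) and -1.31 on average (SE 0.19, adjusted p = 0.000274). In Lgr5-GFP it was -0.78 (SE 0.27, adjusted p = 0.269), and the difference between isolations was 1.07 (SE 0.39, adjusted p = 0.34). Of all genes, 2.42% were called in SM6 and 2.66% on average. Gadd45a was the only gene called of the 12 tested in the base excision repair list, which had a median of -0.03 in SM6. Its relatives Gadd45b (0.31) and Gadd45g (1.13) had adjusted p-values of 0.877 and 0.381 there. The gene E230016M11Rik, which overlaps Gadd45a on the opposite strand, had 60 counts in all against 989.

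**Figure D4:**
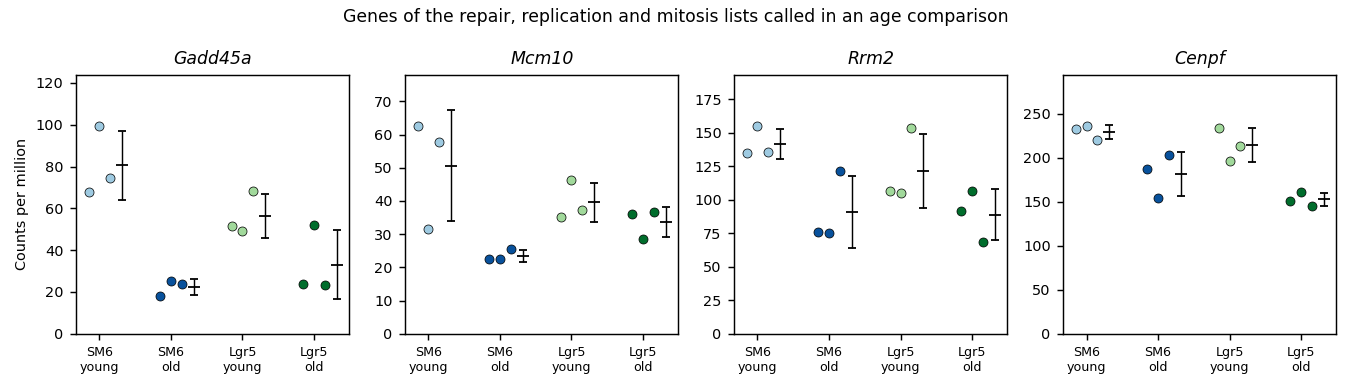
Level in CPM (vertical axis, from 0) of the 4 genes of the repair, replication and mitosis lists called in an age comparison, by library and group, with mean ± SD of 3. Gadd45a lies at 17.9 to 25.1 in SM6 old against 68.0 to 99.2 in SM6 young.

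The readers of methylation had 0 of 7 genes called in each age comparison, with 2 (SM6), 0 (Lgr5-GFP) and 3 (average) at an unadjusted p under 0.05. Of all genes 13.1%, 9.79% and 12.8% were below it, shares that hold for each list below. The study's test of full-length libraries of pooled wild-type ISCs listed the reader Mbd2 as higher in old cells. Here Mbd2 had 0.09 in SM6 (SE 0.23, edgeR adjusted p = 0.927). Zbtb38, a zinc finger protein that binds methylated CpG, came closest in SM6 at -0.64 (SE 0.18, edgeR adjusted p = 0.063). None of the 6 tested partners of the methyltransferases was called in an age comparison, including Hells (-0.25 in SM6, 0.20 in Lgr5-GFP), a chromatin remodeller needed for methylation, and Cdca7 (-0.29 and -0.04), which recruits it. At an unadjusted p under 0.05 there were 1, 0 and 0. Dnmt3l, Zfp57 and Dppa3 were at 0 counts in all libraries, which allows up to 0.945 to 2.89 CPM (3 counts) per library. The 8 genes of methyl donor supply had 0 called, with 0, 2 and 1 at an unadjusted p under 0.05. Of these, Ahcy, which clears the inhibitor S-adenosylhomocysteine, had 0.07 in SM6 and 0.65 in Lgr5-GFP (adjusted p = 0.157). The 5 genes of TET cofactors and partners had 0 called, with 0, 1 and 2 at an unadjusted p under 0.05. Among them Idh1, a source of the cofactor 2-oxoglutarate, had 0.31 and 0.55.

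Of the 25 DNA replication genes, 1 was called lower with age in SM6 (2.42% of all genes were called) and 1 on average (2.66%). None was called in Lgr5-GFP (0.471% of all genes), where 3 had an unadjusted p under 0.05 (9.79% of all genes). Mcm10, which helps to load the replication machinery, fell by 1.10 on the log2 scale in SM6 (SE 0.26, edgeR adjusted p = 0.0204). Rrm2, a subunit of ribonucleotide reductase, fell by 0.55 on average (SE 0.15, adjusted p = 0.047). The study's own test went the other way: in full-length libraries of pooled wild-type ISCs it listed Rrm2 as higher in old cells. Of 12 mitosis genes none was called in SM6 or Lgr5-GFP (2 and 1 at an unadjusted p under 0.05, against 13.1% and 9.79% of all genes). On average 1 was called, against 2.66% of all genes. This was Cenpf, a kinetochore protein, which fell by 0.42 (SE 0.11, adjusted p = 0.0437). Each of these 3 calls was lost when some single libraries were left out: the largest adjusted p was 0.108 for Mcm10 (without SM6 young replicate 1), 0.17 for Rrm2 (without Lgr5-GFP young replicate 3) and 0.135 for Cenpf (without SM6 old replicate 2). The calls of Gadd45a held in each such fit.

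Germline genes that methylation keeps silent, and imprinted genes, were examined last. Of 8 germline genes that are known to need promoter methylation for silencing, 6 were at 0 counts in all 12 libraries, Dazl and Ddx4 among them. Asz1 had 4 counts over all libraries. Sycp3, with 26 counts in 9 libraries, was the only one tested and was not called (0.28 on average, SE 1.07, edgeR adjusted p = 0.961). Its age difference had opposite signs in the isolations, -0.67 in SM6 and 1.23 in Lgr5-GFP, neither of them called. Of 16 imprinted genes 6 passed the filter, and none was called in an age comparison. An unadjusted p under 0.05 was seen for 1 (SM6), 1 (Lgr5-GFP) and 3 (average), against 13.1%, 9.79% and 12.8% of all genes. With TMM scaling all 6 had a negative average age difference, with a median of -0.46 against -0.03 over all genes. In SM6 2 of the 6 were higher and the median was -0.14, and in Lgr5-GFP none was higher and the median was -0.54. The receptor gene Igf2r had -0.46 (SE 0.18, adjusted p = 0.243) and Impact -0.62 (SE 0.24, adjusted p = 0.248). The summed level of all 16 imprinted genes ranged from 302.8 to 386.3 CPM in SM6 young and from 189.3 to 282.0 in SM6 old, which did not overlap. Of all single genes tested, 17.5% separated these groups in either direction. In Lgr5-GFP the sum ranged from 202.3 to 334.2 CPM in young and from 109.9 to 259.4 in old libraries, which overlapped.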

How the data were processed

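The authors deposited one table of raw counts per gene for 12 libraries of 3′ RNA-seq. Per the labels, reads were aligned with STAR 2.4.2a to GRCm38 and counted with featureCounts (version not given in the sources used here); the study names the exons of GENCODE vM15. Collapsing of molecular identifiers and the strand setting are not given in the sources used here. All 12 columns were mapped to samples by name, and 0 columns of per-sample values were left out. Symbols came from a table of gene names that matched 54079 of 54232 identifiers, coordinates from GENCODE vM21 on GRCm38 and promoters from RefSeq on GRCm38.p6. The study describes these libraries as coming from individual mice.

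Genes with more than 5 reads and at least 1 CPM in at least 1 library were kept (13368). CPM are counts scaled to 1000000 counts of these genes, with TMM factors. The 4 group means were fitted over all 12 libraries with edgeR 4.0.16 (glmQLFit and glmQLFTest, R 4.3.3), and Benjamini-Hochberg adjustment covered every gene tested, with a threshold of 0.05. Log2 levels used a prior count of 2. Correlations used 100000 permutations. The steps were tested on simulated counts with 200 changed genes. Alternatives used DESeq2 1.42.0, limma 3.58.1 (voom), other scalings, filters and covariates, and each library left out in turn. Figures were drawn with matplotlib 3.10.9.

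The 10 members were named in every comparison. Of the other pathway lists (marker lists are given by counts and sums), genes called in an age comparison were named, up to 4 in each direction, and the 5 genes most alike were sought for the 3 members with the highest mean, among genes with a mean of at least 10 CPM. One of these genes is not reported here. Other genes named in the text were chosen after their values were seen, to illustrate their list. The members and lists were chosen with earlier results of these data known. Libraries of one group differed beyond sampling noise in all 12 pairs, and none was a duplicate. Confidence intervals are 95% from the fit.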

Additional observations from a re-analysis of the deposited data

Results flagged for a closer look

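No methylation gene was flagged. Of the marker and pathway genes examined beside them, 20 had age effects that differed between the isolations by the interaction term (age difference in Lgr5-GFP minus that in SM6, log2, edgeR adjusted p between 0.00554 and 0.0298), all markers of other intestinal cell types with higher levels in old SM6 and lower levels in old Lgr5-GFP cells. The interaction of the Paneth cell markers was -5.13 for Lyz1, -4.20 for Mmp7, -5.17 for Pla2g2a, -5.71 for Ang4 and -5.44 for Itln1. For the defensins it was -4.36 (Defa17), -5.82 (Defa21), -5.79 (Defa22), -4.06 (Defa24), -5.07 (Defa26) and -4.17 (Defa30), and reads of such near-identical genes could be split between them in counting. For the enterocyte markers it was -3.26 (Alpi), -2.60 (Apoa1), -2.44 (Apoa4), -2.51 (Sis) and -3.63 (Lct), for the goblet cell markers -2.52 (Muc2), -1.74 (Agr2) and -2.91 (Spink4), and for the hormone gene Sct -1.998. The stem cell marker Slc12a2 moved in opposite directions in the isolations without overlap of libraries, with an interaction of 0.80 that did not pass the test (edgeR adjusted p = 0.132). The part of these differences in the values of the methylation genes was not tested beyond the fit with the defensin share as a covariate.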

How the results depend on the processing

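The number of members called was 0 in all 6 comparisons under each alternative run (the fit on only the 2 groups compared exists for the 4 comparisons of 2 groups), including the fit with a replicate block (0 of 10) and each library left out. Same-numbered libraries deviated together with correlations between -0.044 and 0.048, so the numbers do not pair the libraries; the replicate block moved the whole count of called genes from 323 to 331 in SM6 and from 88 to 104 for the interaction. The adjusted p of Dnmt3a in SM6 ranged from 0.0635 (library totals alone) to 0.481, and its fold change from -0.80 to -0.50. The cause of the changes below was not tested.

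Direction of a member's fold change (log2) changed in 95 fits, counting each member, comparison and alternative setting separately, and none of these was called. With library totals alone, where the median of all genes stood at -0.16 in SM6, 0.16 in Lgr5-GFP, 0.35 in the interaction, -0.15 at 2 months and 0.21 at 22 months (-0.01, -0.03, 0.00, -0.01 and 0.00 with TMM), the age difference in Lgr5-GFP became 0.087 (Dnmt3a), 0.12 (Tet1) and 0.21 (Tet2), the interaction 0.035 (Uhrf1), 0.19 (Uhrf2), 0.29 (Tet1) and 0.24 (Tet3), Tdg at 2 months -0.021 and Uhrf1 at 22 months 0.039. Tet1 in SM6 became 0.000789 with DESeq2 size factors, 0.000856 with the replicate block, 0.12 with the defensin share and 0.094 with the replication genes as covariate. Tet2 in Lgr5-GFP became 0.019 with the DESeq2 test, 0.042 with the replicate block and 0.51 with the defensin share. Dnmt1 on average became -0.00105 with no filter. With voom, Mbd4 in SM6 became 0.16, the Tet3 interaction 0.0036, Uhrf1 at 2 months -0.041, and Uhrf2, Tet1 and Mbd4 at 22 months -0.015, -0.12 and -0.18. With the defensin share, Mbd4 in Lgr5-GFP became 0.18, the interaction 0.061 (Uhrf2), 0.057 (Tet3) and 0.60 (Mbd4), and Tet1 and Tet2 at 22 months -0.019 and 0.026. With the replication genes, SM6 gave 0.035 (Dnmt1) and 0.22 (Uhrf1), Tet1 on average 0.024, the Uhrf2 interaction 0.068 and Dnmt1 at 22 months -0.023.

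With each library left out in turn, the fold change crossed 0 for the following members. In SM6 it ran from -0.19 to 0.015 for Dnmt1, -0.74 to 0.28 for Dnmt3b, -0.44 to 0.41 for Mbd4, -0.38 to 0.36 for Tet1, -0.70 to 0.085 for Tet2, -0.25 to 0.071 for Tet3 and -0.40 to 0.031 for Uhrf1. In Lgr5-GFP it ran from -0.035 to 0.23 for Dnmt1, -0.31 to 0.037 for Dnmt3a, -0.39 to 0.26 for Tet1 and -0.63 to 0.76 for Tet2. On average it ran from -0.061 to 0.073 for Dnmt1, -0.095 to 0.41 for Dnmt3b, -0.23 to 0.14 for Tet1 and -0.47 to 0.23 for Tet2. For the interaction it ran from -0.44 to 0.30 for Tet1, -0.32 to 1.07 for Tet2, -0.32 to 0.088 for Tet3, -0.50 to 0.15 for Uhrf1 and -0.37 to 0.10 for Uhrf2. Between isolations at 2 months it ran from -0.066 to 0.27 for Tdg, -0.16 to 0.58 for Tet1, -0.36 to 0.052 for Tet3 and -0.34 to 0.30 for Uhrf1. Between isolations at 22 months it ran from -0.12 to 0.15 for Dnmt1, -0.14 to 0.45 for Mbd4, -0.18 to 0.48 for Tet1, -0.98 to 0.015 for Tet2, -0.39 to 0.047 for Uhrf1 and -0.095 to 0.33 for Uhrf2.

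Counts of called genes over the whole table differed from the values given by more than 1.5 times as follows. In SM6 (323) they were 603 with no filter, 527 with the likelihood ratio test, 112 with the replication genes as covariate, and 145 to 404 with a library left out. In Lgr5-GFP (63) they were 274, 173, 97 with library totals alone, 28 with the defensin share, and 26 to 113. On average (355) they were 590 with no filter, 131 with the replication genes, and 228 to 471. For the interaction (88) they were 224, 158, 34 with the defensin share, and 41 to 98. At 2 months (12) they were 125, 41, 25 with library totals alone, 22 with DESeq2, 22 with voom, and 6 to 39. At 22 months (96) they were 228, 203, 58 with the replication genes, and 40 to 120. The calls of Gadd45a held in SM6 and on average under every alternative, with fold changes from -2.01 to -1.66 and from -1.55 to -1.21. Outside the fits with a library left out, Mcm10 lost its call with voom and with the replication genes, Rrm2 with DESeq2 size factors, library totals and the replication genes, and Cenpf with these 3, the replicate block and the defensin share. Tet1, Tdg, Mbd4 and Dnmt3b had at most 33 counts per library; the part of depth in their spread was not tested.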
